A study of Mus musculus with 94 samples.

Results

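The genes described here are 9 integrin subunits of mouse bone marrow basophils, Itga2, Itga2b, Itga4, Itgal, Itgam, Itgb1, Itgb2, Itgb3 and Itgb7. They were taken by name from a table of read counts with 46078 gene identifiers, and all 9 were found in it. The cells were 94 single basophils from female C57BL/6 mice, 47 from a CD34-positive and 47 from a CD34-negative gate, with no treatment named in the labels. Both gates took live cells that were negative for lineage markers (Lin) and Sca1 and positive for FcεRI, the high-affinity receptor for IgE. The antibodies of the lineage mix, and whether one of them binds an integrin described here, are not given in the sources used here. The design names 3 mice, but the mouse behind each cell is not labelled, so each gate counts as 1 sample. Differences between gates therefore have no replicate check and no test.

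Integrins are surface receptors made of 1 alpha and 1 beta chain, which attach cells to other cells and to the extracellular matrix. A chain reaches the surface only as part of such a pair, and several alpha chains share a beta chain. In leukocytes, pairs with the beta2 chain bind ICAM proteins, the alpha4 pairs bind VCAM-1, fibronectin or MAdCAM-1, and the pair of alphaIIb and beta3 is best known as the fibrinogen receptor of platelets. The chains are named below by gene. Itga2 encodes alpha2 (CD49b, used with the DX5 antibody to identify mouse basophils), Itga2b alphaIIb (CD41), Itga4 alpha4 (CD49d), Itgal alphaL (CD11a) and Itgam alphaM (CD11b).

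Promoter sequence is shown for Itga4 and for the genes of its 2 beta chains, Itgb1 and Itgb7, because Itga4 differed between the gates in the direction opposite to both. The sequences, of up to 250 bases, are RefSeq bases upstream of the start site (GRCm38.p6), written in the direction of transcription, and 6 of the 9 subunits had an entry. Itga4 is on the plus strand at chr2:79255176-79255425, Itgb1 on the plus strand at chr8:128685404-128685653 and Itgb7 on the minus strand at chr15:102231945-102232185. Capitals mark matches, on either strand, to 4 motifs that were searched.
Itga4: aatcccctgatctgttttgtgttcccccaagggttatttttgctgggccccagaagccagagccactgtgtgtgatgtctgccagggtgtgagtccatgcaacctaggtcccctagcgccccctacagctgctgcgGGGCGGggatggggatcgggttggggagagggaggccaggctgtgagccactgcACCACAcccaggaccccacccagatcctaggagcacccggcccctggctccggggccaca
Itgb1: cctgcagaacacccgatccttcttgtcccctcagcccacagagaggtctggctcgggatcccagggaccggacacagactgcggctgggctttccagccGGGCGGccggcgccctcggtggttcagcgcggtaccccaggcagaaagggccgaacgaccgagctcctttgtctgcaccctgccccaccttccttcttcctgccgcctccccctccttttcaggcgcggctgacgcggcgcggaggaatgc
Itgb7: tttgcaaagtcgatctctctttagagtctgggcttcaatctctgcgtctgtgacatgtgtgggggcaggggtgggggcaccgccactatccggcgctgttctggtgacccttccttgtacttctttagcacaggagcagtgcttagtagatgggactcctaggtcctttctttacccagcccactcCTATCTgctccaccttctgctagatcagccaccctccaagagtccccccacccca
The Itga4 stretch held 1 match to the SP1-type motif GGGCGG and 1 to the RUNX motif (TGTGGT or TGCGGT), the Itgb1 stretch held 1 to GGGCGG, and the Itgb7 stretch held 1 to the GATA motif (AGATAA or TGATAA, and with a last G also AGATAG or TGATAG). Of 27025 RefSeq promoters with the same 250-base window, 32.9% held the SP1-type motif, 18.7% the RUNX motif and 27.1% the GATA motif, and 20.0% held the ETS motif GGAAGT. Such matches describe letters in a window and say nothing of binding.

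After leaving out 1 cell of each gate with few reads, 92 cells remained, 46 per gate. Gene reads per cell ranged from 262944 to 938322 (median 737059) in the CD34-negative gate and from 374011 to 1154738 (median 633178) in the CD34-positive gate. Cd34 transcripts, which follow the sort, stood at 0.209 CPM (counts per 1e6 gene reads) in the CD34-negative and 59.9 CPM in the CD34-positive gate. The gates also differed in gene reads per spike-in read and in the number of genes found. The median CD34-negative cell had 6.87 gene reads per read of the ERCC spike-in RNA and the median CD34-positive cell 14.4, while 200000 gene reads per cell found a median of 4501 and 6516 genes. CPM values compare the share of a cell's reads, and scaling by ERCC reads moved the median log2 ratio of all genes from 0.19 to 1.06.

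Of 21 basophil genes (such as Mcpt8, Prss34, Fcer1a and Ms4a2), the median cell had reads for 20 in the CD34-negative gate and 18 in the CD34-positive gate. Cell 10 of the CD34-negative gate went against its label. It had reads for 12 of the 21, with 7.61 CPM of Fcer1a against 223 to 8761 CPM in the 45 other cells and 3.80 CPM of Gata2 against 929 to 5556. Its 118 CPM of Prss34, 45.6 of Mcpt8 and 26.6 each of Cpa3 and Cd200r3 were low but within the range of the other cells. It had 12273 CPM of Cd74 and 3119 CPM of C1qb, while no other cell of its gate passed 2.41 CPM of Cd74 or had any C1qb reads. These genes were chosen after their values were seen. Cell 10 stays in the values below, and those of Itga4 and of the counts over the 9 subunits are also given without it. For the other subunits, leaving it out lowered the CD34-negative cells with reads by 1 for Itgb1 (to 41) and Itgb2 (to 45).

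Most of the 9 subunits took a smaller share of reads in CD34-positive than in CD34-negative cells, and Itga4 took a larger one. The log2 ratio of CPM plus 1, CD34-positive over CD34-negative, was below 0 for 8 subunits, with a median of -1.07 over the 9. Of all 12460 genes with reads in at least 10 cells, 41.1% were below 0 and the median was 0.19. Itga2, Itgam, Itgb1, Itgb3 and Itgb7 were lower by over 2-fold, 5 of 9 against 10.1% of all genes, and Itga4 was higher by over 2-fold, 1 of 9 against 21.7%. Scaled by ERCC reads, 5 subunits were below 0 and only Itgb3 was lower by over 2-fold, against 12.4% and 2.34% of all genes, with a median of -0.10 beside 1.06 for all genes. With that scaling Itga4 and 3 others were higher at any size, while only 12.4% of all genes were lower at any size. By over 2-fold only Itga4 was higher, 1 of 9 against 52.7% of all genes. Without cell 10 there were 8 subunits below 0 and 5 lower by over 2-fold, against 40.9% and 9.98% of all genes, with 21.9% of genes higher by over 2-fold. Nearest to the 2-fold limit were Itgb1 at -1.07 and Itgb2 at -0.95.

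**Figure D1:**
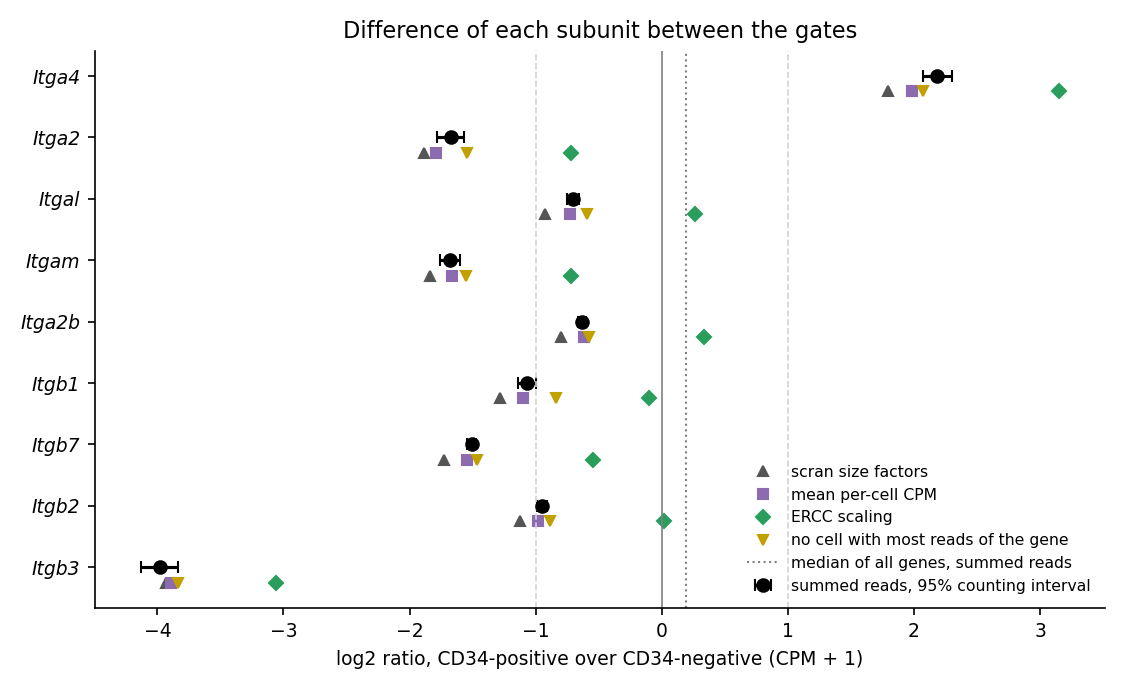
Log2 ratio of CPM plus 1 between the gates for each subunit, from summed reads over 46 cells per gate, scaled by gene reads or by ERCC reads. Bars are 95% Poisson intervals, which cover counting error only. Itga4 lies at 2.19 and Itgb3 at -3.98, and ERCC scaling moves Itga2b, Itgal and Itgb2 above 0.

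Summed over the 9 genes, the median cell held 5859 CPM in the CD34-negative gate (1320 to 8814) and 2398 CPM in the CD34-positive gate (154 to 7740). The ranges overlapped over most of their length. Each gate had cells with reads for as few as 3 and as many as all 9 subunits, with a median of 8 in CD34-negative and 7 in CD34-positive cells. In the CD34-positive gate, cell 1 had the lowest sum and also reads for the fewest basophil genes of its gate, 11 of 21. Mitochondrial genes took 5.74% of its gene reads, ERCC 25.5% of its gene and ERCC reads, and reads assigned to more than 1 gene 49.0% of gene and ambiguous reads, with the mitochondrial and ambiguous shares the highest of the kept cells. Their part in its subunit values was not tested.

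**Figure D2:**
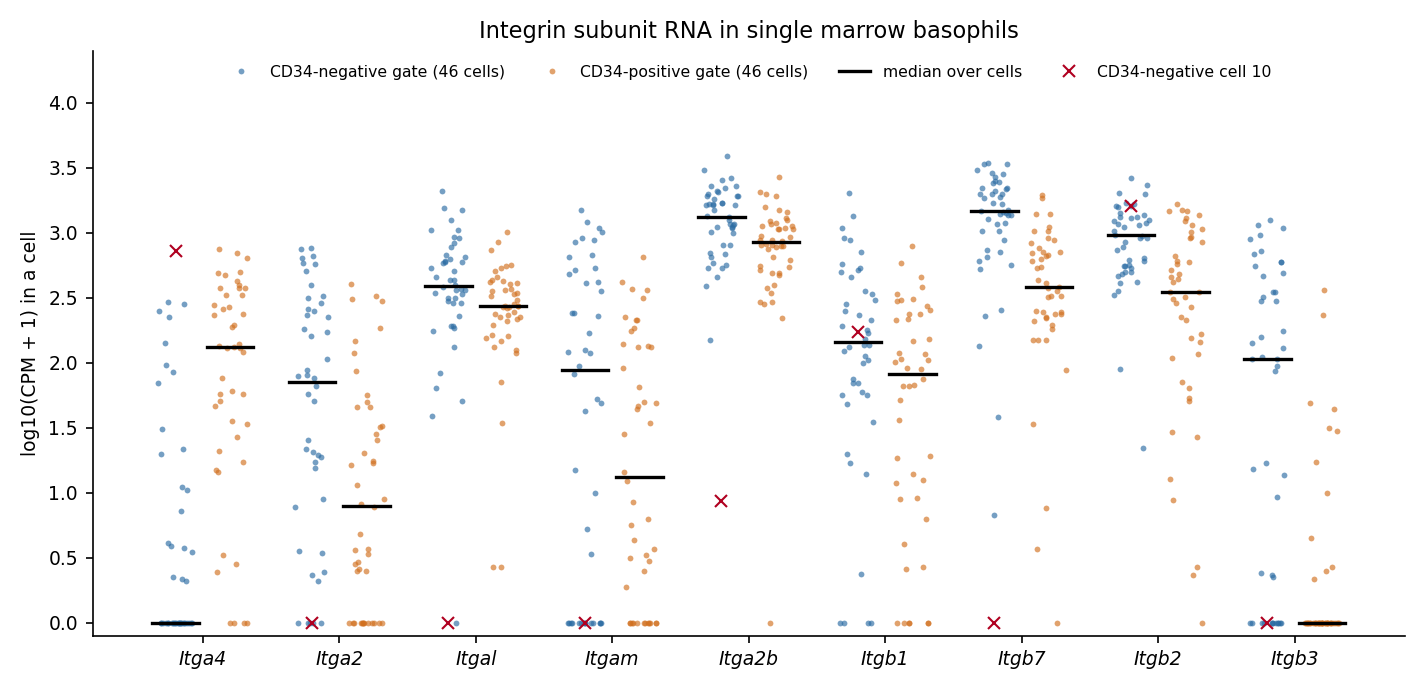
CPM of each subunit in each of 46 cells per gate, on a log scale of CPM plus 1, with the median of each gate. The gates overlap for every subunit, and cell 10 of the CD34-negative gate is drawn apart.

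Per length of exon, the order of the subunits was similar in the 2 gates. Itgb7 was the most abundant, with 574 CPM per kilobase for CD34-negative cells and 202 for CD34-positive cells, followed by Itgb2 (335 and 173) and Itga2b (265 and 171). Itgal (78.9 and 48.4), Itgb1 (75.2 and 35.8) and Itgam (58.8 and 18.2) followed in that order in both gates. Itga2 was in place 8 in both gates, and Itgb3 and Itga4 exchanged places 7 and 9. Itgb3 (48.1) stood above Itga2 (23.96) and Itga4 (2.94) in CD34-negative cells, whereas Itga4 (13.6) stood above Itga2 (7.41) and Itgb3 (2.88) in CD34-positive cells. Cells of a gate overlapped between any 2 neighbours in these orders, so the order holds for the gate sums only.

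Among the alpha chains, Itga4 was the one with more reads in the CD34-positive gate. Itga4 lies at chr2:79255426-79333123 on the plus strand (GRCm38), and 8.04% of its exon length overlaps Cerkl on the opposite strand. Cerkl had 240 reads over all kept cells. Its CPM per cell ranged from 0 through a median of 0 to 726 in the CD34-negative gate and from 0 through 131 to 752 in the CD34-positive gate. The top CD34-negative value belonged to cell 10, and the highest of the others was 293. In the CD34-positive gate 42 of 46 cells lay above the CD34-negative median of 0, as did 22 cells of the CD34-negative gate. These are the cells with any Itga4 read at full depth, and the ranges overlapped.

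The gates summed to 41.1 CPM of Itga4 (95% Poisson interval 38.9 to 43.3) and 190.4 CPM (185.5 to 195.4), a 4.64-fold difference and a log2 ratio of 2.19 (2.07 to 2.30). Without cell 10 the CD34-negative gate stood at 35.6 CPM, the difference was 5.34-fold, and 17 cells of that gate had Itga4 reads. At 200000 gene reads per cell, Itga4 reads were found in 18 of 46 CD34-negative cells (39.1%, Clopper-Pearson interval 25.1 to 54.6) and 39 of 46 CD34-positive cells (84.8%, 71.1 to 93.7). Over the alternatives tried, its log2 ratio ran from 1.80 to 3.15.

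Itga2 (chr13:114833081-114932100, minus strand) was lower in the CD34-positive gate. Its CPM per cell ran from 0 through a median of 70.2 to 767 in CD34-negative cells and from 0 through 6.97 to 402 in CD34-positive cells. The ranges overlapped, and 8 of 46 CD34-positive cells lay above the CD34-negative median. The sums were 170.9 and 52.8 CPM, a log2 ratio of -1.68 (-1.78 to -1.57), and -0.72 with ERCC scaling. Reads were found in 36 (78.3%, 63.6 to 89.1) and 25 cells (54.3%, 39.01 to 69.1).

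Itga2b (chr11:102453297-102470122, minus strand) was the most abundant alpha chain in both gates. Its CPM per cell ran from 7.61 (cell 10) through 1332 to 3916 in CD34-negative cells and from 0 (cell 1) through 841 to 2672 in CD34-positive cells. Reads were found in 45 of 46 cells of each gate, and 7 CD34-positive cells lay above the CD34-negative median. The log2 ratio was -0.63 (-0.66 to -0.60) by gene reads and 0.33 by ERCC reads, so its direction turned with the scaling. Markers of megakaryocytes, which also make alphaIIb, summed to 10.4 CPM in the CD34-negative and 22.1 CPM in the CD34-positive gate, with Pf4, Ppbp, Gp6 and Treml1 at 0 reads. Gp1ba made 4.99 and 16.2 CPM of these sums, with reads in 3 and 7 cells, and Vwf had 3.05 and 2.96 CPM. Their part in the Itga2b values was not tested.

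Itgal and Itgam, the alpha chains that pair with Itgb2, differed from one another in how widely they were found. Itgal (chr7:127296260-127335138, plus strand) had CPM from 0 through 390 to 2080 in CD34-negative cells and from 1.67 through 273 to 1005 in CD34-positive cells. Its ranges overlapped widely, and its reads were found in 44 and 45 cells. Its log2 ratio was -0.70 (-0.75 to -0.65), and 0.26 with ERCC scaling.

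Itgam (chr7:128062640-128118491, plus strand) had CPM from 0 through 87.1 to 1507 in CD34-negative cells and from 0 through 12.4 to 648 in CD34-positive cells. The ranges overlapped, with 22 and 14 cells over 100 CPM, and reads were found in 31 cells of each gate. The log2 ratio was -1.68 (-1.76 to -1.60), and -0.72 with ERCC scaling. With at least 10 reads as the limit, Itgam was found in 54.3% of CD34-negative and 36.96% of CD34-positive cells. In the GENCODE M21 annotation, 68.7% of the exon length of Itgam overlaps Gm49368 on the same strand. The identifier of Gm49368 is not among the rows of the count table. Neutrophil markers, which belong to cells rich in alphaM, summed to 19.7 and 71.2 CPM, with Ly6g, Ltf and Camp at 0 reads. Lcn2 made 19.6 and 66.6 CPM of these sums, with reads in 6 and 26 cells. Monocyte and dendritic cell markers summed to 507 and 54.8 CPM, of which Ccr2 made 493 and 40.5 CPM. Their part in the Itgam values was not tested.

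Among the beta chains, Itgb3 showed the largest log2 ratio of the 9 subunits in size, whereas ERCC scaling left it at -3.06 beside 3.15 for Itga4. Itgb3 (chr11:104608000-104670476, plus strand) had CPM from 0 through 105 to 1244 in CD34-negative cells and from 0 through 0 to 363 in CD34-positive cells. More than 100 CPM was found in 24 CD34-negative and 2 CD34-positive cells, and 2 CD34-positive cells lay above the CD34-negative median. The sums of 283.7 and 17.02 CPM gave a 16.7-fold difference and a log2 ratio of -3.98 (-4.13 to -3.83). Cell 37 alone held 49.3% of the Itgb3 reads of the CD34-positive gate, and without it the log2 ratio was -4.86. Reads were found in 30 CD34-negative cells (65.2%, 49.8 to 78.6) and 10 CD34-positive cells (21.7%, 10.9 to 36.4).

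Itgb7 (chr15:102215995-102231944, minus strand), the beta chain of alpha4beta7 and alphaEbeta7, had CPM from 0 through 1456 to 3427 in CD34-negative cells. In CD34-positive cells it ran from 0 through 378 to 1959. Cell 10 was the CD34-negative cell at 0, and the next lowest had 5.73 CPM. The ranges overlapped, but 2 of 46 CD34-positive cells lay above the CD34-negative median. Reads were found in 45 cells of each gate, and the log2 ratio was -1.51 (-1.54 to -1.47), or -0.54 with ERCC scaling. Mast cells also make beta7, and mast cell markers summed to 16.4 and 22.4 CPM, with Mcpt1, Mcpt2, Mrgprb1 and Mrgprb2 at 0 reads in both gates. Gzmb made 16.4 and 15.1 CPM of these sums, and Tpsab1 had 0.0299 and 4.99 CPM. Their part in the Itgb7 values was not tested.

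Itgb1 (chr8:128685654-128733200, plus strand), the common partner of many alpha chains, had CPM from 0 through 144 to 2034 in CD34-negative cells and from 0 through 81.3 to 790 in CD34-positive cells. Its ranges overlapped, and 16 CD34-positive cells lay above the CD34-negative median, the most among the subunits that were lower. Reads were found in 42 and 38 cells, and the log2 ratio was -1.07 (-1.14 to -0.995), or -0.10 with ERCC scaling. CD34-negative cell 21 held 16.8% of the Itgb1 reads of its gate, and without it the log2 ratio was -0.84, under the 2-fold limit.

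Itgb2 (chr10:77530252-77565708, plus strand), the beta chain shared by alphaL and alphaM, had CPM from 21.2 through 953 to 2621 in CD34-negative cells and from 0 through 349 to 1673 in CD34-positive cells. Reads were found in 46 and 43 cells. The log2 ratio was -0.95 (-0.99 to -0.91) by gene reads and 0.01 by ERCC reads. Without CD34-positive cell 37 it was -1.03, past the 2-fold limit. The ranges overlapped, with 10 CD34-positive cells above the CD34-negative median. The 6 CD34-positive cells lowest in Itgb2 (0 to 25.7 CPM) had 50.1 to 80215 CPM of Prss34, a basophil protease, and 0 to 563 CPM of Kit, the stem cell factor receptor. Over all 46 CD34-positive cells Itgb2 had a Spearman rho of 0.45 with Prss34, and over the CD34-negative cells 0.10.

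Reads of both chains of known pairs were counted in the same cell, at 200000 gene reads per cell. Both Itga4 and Itgb1 were found in 16 CD34-negative cells (34.8%, 21.4 to 50.2) and 32 CD34-positive cells (69.6%, 54.2 to 82.3). Itga4 with Itgb7 was found in 17 (36.96%, 23.2 to 52.5) and 38 cells (82.6%, 68.6 to 92.2). In each gate only 1 cell had Itga4 reads without Itgb7 reads, so these counts nearly repeat those of Itga4. Both alpha4 pairs were found in more cells of the CD34-positive gate, although Itgb1 and Itgb7 themselves were lower there. Without cell 10, Itga4 with Itgb1 was found in 15 CD34-negative cells. With at least 10 reads of each chain, Itga4 with Itgb1 was found in 7 and 20 cells and Itga4 with Itgb7 in 8 and 28. The 18 CD34-negative cells with Itga4 reads (cell 10 among them), and 38 of 39 CD34-positive cells, also had Itgb1 or Itgb7 reads. Per length of exon, Itga4 had 0.0391 times the level of Itgb1 among CD34-negative cells and 0.380 times among CD34-positive ones.

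Itga2 with Itgb1, the collagen-binding pair, was found in 34 CD34-negative cells (73.9%, 58.9 to 85.7) and 19 CD34-positive cells (41.3%, 26.998 to 56.8). Itga2b with Itgb3 was found in 30 (65.2%, 49.8 to 78.6) and 10 cells (21.7%, 10.9 to 36.4). No cell had Itgb3 reads without Itga2b reads, so these are the counts of Itgb3 again. With at least 10 reads of each chain, the counts were 21 and 5 cells for Itga2 with Itgb1 and 26 and 2 for Itga2b with Itgb3. In the CD34-positive gate 35 of the 45 cells with Itga2b reads thus had no Itgb3 read at this depth, against 15 of 45 in the CD34-negative gate. Per length of exon, Itga2b exceeded Itgb3 by 5.51 times in the CD34-negative and 59.2 times in the CD34-positive gate. Without CD34-positive cell 37 the latter was 109 times, a setting added after the data were seen. Itgal with Itgb2 was found in 44 and 43 cells, and Itgam with Itgb2 in 31 and 28 cells. Without drawing, these were 44 and 45 and 31 and 33 cells. With at least 10 reads of each chain, Itgam with Itgb2 was found in 24 and 16 cells.

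**Figure D3:**
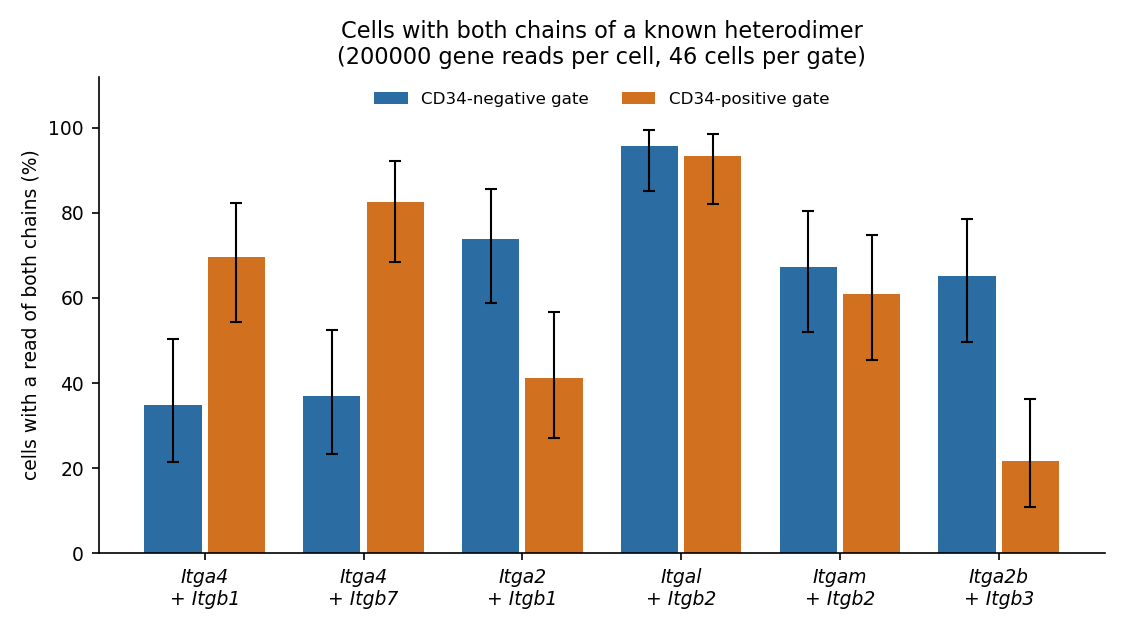
Share of 46 cells per gate with reads of both chains of each pair, after drawing 200000 gene reads per cell. Bars start at 0 and error bars are 95% Clopper-Pearson intervals. Itga4 with Itgb7 goes from 36.96% to 82.6% and Itga2b with Itgb3 from 65.2% to 21.7%. The latter are also the shares of cells with Itgb3 reads, since all of those cells had Itga2b reads.

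Within a gate, relations between subunits from cell to cell are given as Spearman rho over 46 cells that share a protocol and differ in depth. Over the 36 pairs of subunits the median rho was -0.01 in the CD34-negative gate (-0.39 to 0.37) and 0.17 in the CD34-positive gate (-0.28 to 0.57). It was positive for 18 and 28 pairs. The same values over pairs of all genes were not worked out, so neither count is read as particular to the subunits. The highest value was Itga2b with Itgb7 in the CD34-positive gate at 0.57, followed by Itga2b with Itgb2 at 0.42 and Itgb2 with Itgb7 at 0.40. Itga4 and Itgb3 had rho of -0.39 in CD34-negative and -0.28 in CD34-positive cells. Without cell 10 the CD34-negative value was -0.35, and that of Itga4 with Itgb2 was -0.36 in place of -0.29. Drawing cells to an equal depth moved no value by more than 0.18.

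**Figure D4:**
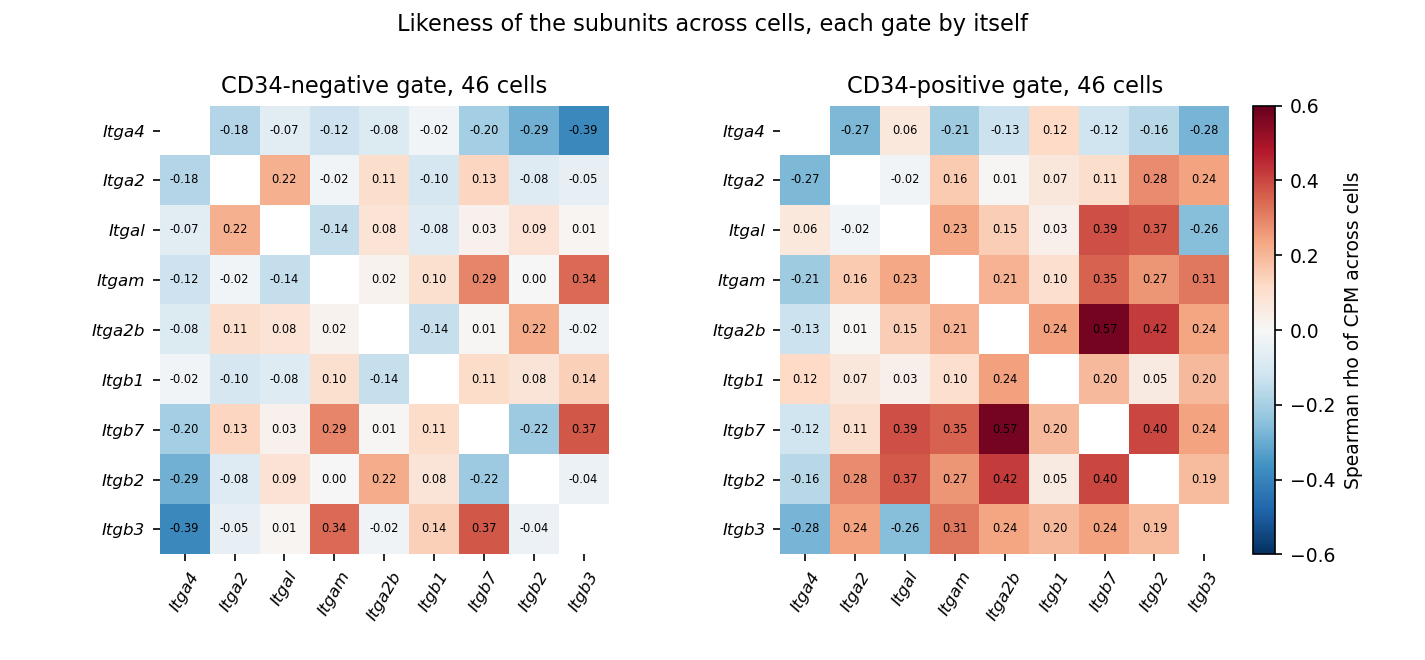
Spearman rho between subunits over 46 cells, for each gate, on a color scale with 0 at its centre. In the CD34-positive gate Itga2b, Itgb2 and Itgb7 have rho of 0.40 to 0.57 with each other, and Itga4 with Itgb3 has -0.39 for CD34-negative cells and -0.28 for CD34-positive cells.

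Against genes of basophil function in the CD34-positive gate, Itga4 had rho of -0.55 with Fcer1a, the IgE-binding chain, and -0.52 with Ccl3, a chemokine. With Kit it had 0.36. It had -0.07 with Ms4a2, another chain of the same receptor, and -0.0041 with Gata2, so not all basophil genes showed such values. In the CD34-negative gate those with Fcer1a, Ccl3 and Kit were -0.04, 0.02 and -0.0022. Itgb2 had 0.51 with Ccl3 and -0.45 with Kit, against -0.17 and -0.11 in the CD34-negative gate. Itga2b and Itgb7 had rho of -0.52 and -0.48 with Mpo, a granule enzyme of neutrophil and monocyte progenitors, against -0.05 and 0.02 in the CD34-negative gate. Some relations were larger there. Itgb7 had rho of -0.45 with Ctsg, another progenitor granule enzyme, in CD34-negative and -0.38 in CD34-positive cells, and Itgb3 had -0.36 and -0.24. Itgb7 with Prss34 had -0.37 in CD34-negative and 0.21 in CD34-positive cells. The number of genes found at equal depth moved with some subunits, and its part in the relations was not tested. In the CD34-positive gate its rho was 0.37 for Itga4, -0.40 for Itga2 and -0.33 for Itgb2, against 0.05, 0.11 and 0.05 in the CD34-negative gate. In the latter it was -0.31 for Itgb3 and -0.24 for Itgb7.

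Of 4929 genes with reads in at least 20 cells of each gate, the 3 most like each subunit were taken by the mean rho over the gates. The highest values among so many candidates, over 46 cells per gate, are raised by the choice itself. What unrelated genes would reach was not tested. Itgb1 was most like Rhoa, a small GTPase of the cytoskeleton (0.50), Gm13578 (0.48) and Prkd3 (0.41), and Itgb7 like Lcp1, an actin-bundling protein (0.44), Gm6169 (0.44) and Gm7823 (0.43). Itga2b was most like Acap1 (0.46), Gabbr1 (0.44) and Nbeal2 (0.41), and Itga2 like Ttc7b (0.36), Cd200r3 (0.36) and Hgf (0.35). Itgal was most like Pik3cg (0.41), Cybc1 (0.39) and Rel (0.38), and Itgam like Ing3 (0.41), Gm49339 (0.39) and Selplg (0.38). The list of Itga4 held Gm10132 (0.46), Rpl14 (0.45) and Rpl38-ps2 (0.44). Itgb2 was most like Gm14699 (0.62), a low gene with 4.395 and 2.66 CPM, and then Pi16 (0.48) and Cd200r3 (0.45). Itgb3 had reads in too few CD34-positive cells for this ranking.

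Other genes of integrin biology were taken from lists. Of 18 other integrin genes in the table, 7 had reads in at least 10 cells, and 1 was lower and 1 higher by over 2-fold, with a median log2 ratio of -0.02, beside 10.1% and 21.7% of all genes. With ERCC scaling none was lower and 2 were higher by over 2-fold, beside 2.34% and 52.7% of all genes, whose median was then 1.06. The median was -0.45 with mean CPM per cell, -0.57 with scran factors and -0.57 for genes with at least 10 CPM in a gate, each with 2 lower by over 2-fold. Itga6, the laminin-binding alpha6 chain, was the most abundant, at 239.5 and 114.4 CPM (-1.06). Itgav went from 18.6 to 40.9 CPM (1.10).

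Of 20 measured genes that switch integrins on or regulate that step, 15 were below 0, 6 were lower by over 2-fold and none higher, with a median of -0.59. Of all genes 41.1% were below 0, while 10.1% were lower and 21.7% higher by over 2-fold. These shares hold for the next lists too. With ERCC scaling 1 gene was lower and 5 of 20 higher by over 2-fold, with a median of 0.37, again beside 2.34%, 52.7% and 1.06 for all genes. By gene reads, those lower by over 2-fold were Rap1b (-1.37), a small GTPase of integrin activation, and its effector Apbb1ip (-1.26). The others were Rap1gap2 (-1.91), the adaptors Skap1 (-2.32) and Fyb (-1.20), and Cytip (-1.25). Activators and inhibitors were not separated in this list, so its counts and median give no direction for activation itself. Tln1, the talin that binds beta chain tails, was at 2392 and 1669 CPM (-0.52), and its partner Fermt3 (kindlin-3) at 542 and 413 CPM (-0.39). The 18 measured genes of adhesion signalling had 5 lower and 3 higher by over 2-fold, with a median of -0.29. Without cell 10 there were 4 lower and a median of -0.08, and with ERCC scaling 1 lower, 6 of 18 higher (52.7% of all genes) and a median of 0.67 (1.06 for all genes). Vcl (vinculin, -2.12), Zyx (zyxin, -1.54) and Ptk2b (-1.76) were among the lower, and Parvg (1.05) and Parvb (1.95) among the higher.

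Among 12 membrane partners of integrins the median was -0.36, with 2 lower and 1 higher by over 2-fold. With ERCC scaling the median was 0.61, with 1 lower and 3 of 12 higher, again beside 1.06, 2.34% and 52.7% for all genes. Adam8, a surface protease, was the lowest at -3.25, and the tetraspanin Cd82 stood at -1.28. The tetraspanin Cd81 was at 18.5 and 80.2 CPM (2.06, or 2.92 without cell 10). Of 7 measured ligand genes 1 was lower and 1 higher by over 2-fold, with a median of 0.50. With ERCC scaling none was lower and 4 of 7 were higher, near the 52.7% of all genes, with a median of 1.43. Cdh1, E-cadherin, which binds alphaEbeta7, was at 933 and 489 CPM (-0.93). Of 9 other adhesion receptors, 3 were lower and 4 higher by over 2-fold. The median was 0.58, or 0.23 with scran factors and 0 with no filter on low genes. These counts and medians include Cd34, on which the gates were sorted. They also include Sele, with 0 reads in the CD34-negative gate and reads in 11 CD34-positive cells. Sele thus passed the limit of 10 cells only through the gate where it was high. With ERCC scaling none was lower and 6 of 9 were higher, beside 52.7% of all genes, with a median of 1.54. Selplg (-1.41) and Cd44 (-1.50) were among the lower by gene reads, and Cd24a (3.31) and the sorted-on Cd34 (5.65) among the higher.

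**Figure D5:**
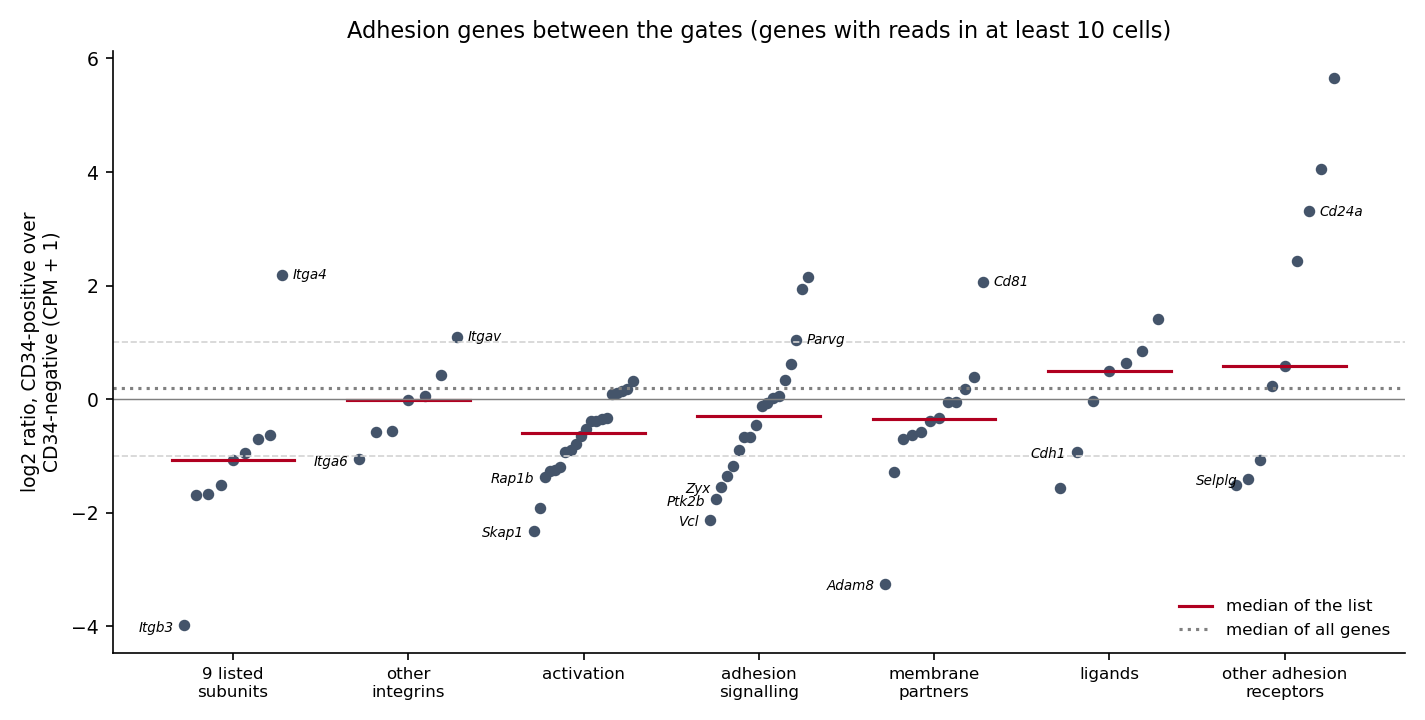
Log2 ratio of CPM plus 1 between the gates for each gene with reads in at least 10 cells, by list, with each list's median and the median of all genes (0.19). The median of the 9 subunits is -1.07. That of genes that switch integrins on or regulate that step is -0.59.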

How the data were processed

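The authors deposited 1 table of whole read counts per gene and cell, not normalized. Per the submitters' processing notes, GSNAP, HTSeq version 0.5.3p3 and mm10 were used. The annotation release and strand setting are not given in the sources used here, so reads of overlapping genes may be unassigned. Per the labels' protocols, polyadenylated RNA was amplified over 19 cycles with ERCC RNA and read as 50 bp single ends. There are no molecular identifiers, and Poisson intervals on reads cover counting error only. Clopper-Pearson intervals treat cells as independent draws, and none covers differences between mice.

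Of all reads, genes held 32.4%, ERCC 3.97%, ambiguous reads 7.68%, no feature 33.0% and unaligned reads 22.9%. Symbols matched 45143 of 46078 identifiers. Positions and exon lengths came from GENCODE M21 (GRCm38).

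Kept cells had at least 50000 gene reads, 1000 genes, under 20% mitochondrial and under 50% ERCC reads. Reads were summed per gate, and log2 ratios used a pseudocount of 1 CPM. Interval bounds of ratios set one gate's upper bound against the other's lower bound. Calculations were tested on simulated data.

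The members and lists were chosen with earlier results of these data known. Named genes were the members, list genes by level or ratio (at most 9 a list), markers, reference genes and the 3 most alike genes. Alternatives were other scalings (scran 1.30.0, edgeR 4.0.16 TMM factors, ERCC, no mitochondrial genes), pseudocounts, cell and gene filters, depths of drawing and leaving cells out. Those without cell 10 and, for 1 ratio, without cell 37 were added after the data were seen. Some list genes are not reported here. Software was Python 3.11.15, numpy 2.4.6, pandas 2.3.3, scipy 1.17.1, matplotlib 3.10.9 and R 4.3.3.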

Additional observations from a re-analysis of the deposited data

How the results depend on the processing

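Scaling by ERCC reads reversed Itga2b (0.33), Itgal (0.26) and Itgb2 (0.015). It also reversed the medians of integrin activation and its regulation (0.37), adhesion signalling (0.67), partners (0.61) and other integrins (0.88). It gave a subunit median of -0.10, with 5 subunits lower and 1 of them by over 2-fold. The subunit median was -1.28 by scran, -1.27 by TMM, -1.27 in cells 7 to 42, and -0.88 when each subunit's top cell was left out. Leaving out each of 92 cells in turn gave medians of -1.22 to -0.95, with 4 to 6 subunits lower by over 2-fold and 8 to 8 lower at all. Of the alternatives for single subunits' log2 ratios, 60 moved less than the counting interval, 63 moved more and 3 reversed. Of those for shares of cells, 153 stayed within the interval and 27 left it. The cause was not tested. No paired analysis was possible because the cell numbers name single cells and no test was run. Each gate is 1 sample, so differences between mice are not covered. A cell without a read may still hold transcripts of a gene at this depth.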
